A study of Homo sapiens with 12 samples.

Results

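PU.1, encoded by SPI1, was knocked down in OCIAML5 cells, and every gene of the resulting count table was compared between knockdown and control libraries. OCIAML5 is a human acute myeloid leukemia cell line, grown here in α-MEM with 20% FBS and 10 ng/mL GM-CSF, the cytokine on which it was kept. The libraries described are 4 of the 12 in the series: 2 carried a hairpin against PU.1 (shSPI1) and 2 carried a control hairpin (shCTL). The cells of all 4 libraries received lentivirus and were then selected with puromycin or sorted for GFP. The other 8 libraries belong to a knockdown of PSPC1, a paraspeckle protein, and 4 of those were made in OCIAML5 too. Whether both libraries of a group stem from separate cultures, infections or hairpins is not in the labels, so p-values measure only how far these libraries scatter, a scatter that may be technical.

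PU.1 is an ETS-family transcription factor that binds purine-rich DNA with a GGAA core. High PU.1 activity goes with monocyte, macrophage and dendritic cell fates, while granulocytes depend more on C/EBP factors, and GATA2 marks stem cells, mast cells and basophils and is held in mutual opposition with PU.1. In acute myeloid leukemia, lowered PU.1 activity is known for blocking myeloid differentiation.

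SPI1 (chromosome 11, 47354860 to 47378576 in GRCh38) stood at 47.5 and 46.2 CPM (a gene's count scaled to a common library total) in the PU.1 knockdown libraries, against 227 and 204 CPM in the control libraries. Both knockdown libraries lay far below both controls, in the direction of the labels, at a log2 fold change of -2.2 ± 0.052 (SE) and an adjusted p of 3.5e-53 in edgeR's quasi-likelihood test with Benjamini-Hochberg adjustment. Of 60648 genes listed, 16861 had enough counts to be tested, and 10197 of them (60.5%) passed at an adjusted p under 0.05. Of all genes tested 4981 (29.5%) were higher and 5216 (30.9%) lower after knockdown, and these 2 shares are the background for every count of genes below. A change of at least 2-fold was seen for 1868 genes higher (11.1%) and 1068 lower (6.33%), and of at least 16-fold for 131 higher and 51 lower. Both knockdown libraries lay above both controls for 40% of the genes and below both for 38.8%. Libraries held 26.3 and 33.9 M counts after knockdown and 33.4 and 39.7 M in the controls, and the biological coefficient of variation was 4.1%, so small changes passed. With library size as the sole scaling, log2 fold changes shifted upward by 0.151 at the median and the split became 6578 higher and 4000 lower, so changes under that size have no fixed direction.

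The macrophage program of this line was a limited one. CD14, the lipopolysaccharide co-receptor of monocytes, had at most 1 count in any library, CD163, the hemoglobin scavenger receptor of macrophages, likewise at most 1, and the complement genes C1QA, C1QB and C1QC had 0. What OCIAML5 controls did express were CSF1R, MPEG1, some of the MS4A and LILR receptors, class II molecules and lysozyme. In bulk RNA, fewer cells of a type and less RNA per cell cannot be told apart.

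Among genes with at least 5 CPM in the higher group, the 12 largest falls held several genes of monocytes, macrophages and dendritic cells beside genes of other kinds. TIFAB, a relative of the TRAF6 adaptor TIFA, stood at 0 and 0.167 CPM in knockdown libraries, against 38.5 and 36.9 CPM in controls (log2 fold change -8.58 ± 0.22, adjusted p = 1e-50). MPEG1, the pore-forming perforin-2 of macrophages, stood at 2.07 and 1.98 CPM in knockdown libraries, against 238 and 249 CPM in controls (-6.91 ± 0.081, adjusted p = 3.9e-76). CSF1R, through which macrophage colony-stimulating factor (M-CSF) acts, stood at 2.90 and 3.54 CPM in knockdown libraries, against 170 and 164 CPM in controls (-5.68 ± 0.082, adjusted p = 6.9e-70). All 3 were nearly lost in both knockdown libraries, and neither group overlapped the other. RXFP1, the relaxin receptor, fell by 6.70 on the log2 scale and DHRS9, a retinol dehydrogenase, fell by 6.38. GAPT, a GRB2-binding adaptor of B and myeloid cells, fell by 6.13, DKK2, a secreted WNT inhibitor, fell by 5.77 and DLGAP3, a synaptic scaffold protein, fell by 5.27. CLEC10A, a galactose-binding lectin of dendritic cells and macrophages, stood at 0.145 and 0.0836 CPM in knockdown libraries, against 6.77 and 5.96 CPM in controls. By the stricter measure of at least 10 CPM in one group and under 0.2 CPM in the other, 4 genes were switched off after knockdown, TIFAB, GAPT, MS4A4A and RXFP1. By the same measure 1 gene was switched on, GCSAML, a relative of a germinal centre signalling protein, at 12.4 and 13.6 CPM in knockdown libraries, against 0.158 and 0.159 CPM in controls. MPEG1 overlaps DTX4 and CSF1R overlaps the pseudogene RPL7P1 on the opposite strand; the library kit was stranded, but no source used here gives the strand setting with which reads were counted.

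**Figure D1:**
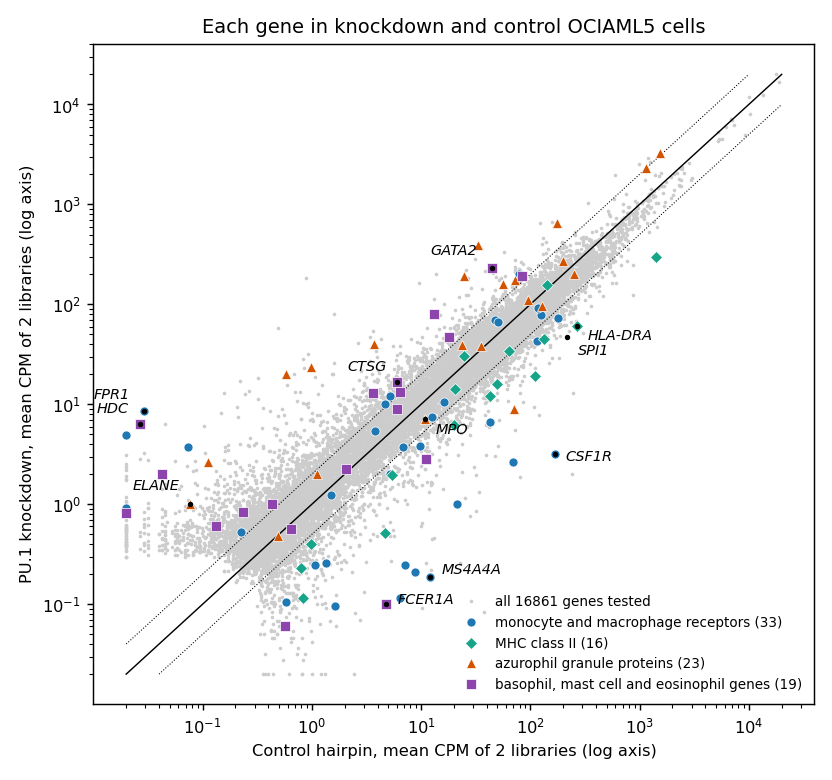
Mean CPM of the 2 PU.1 knockdown libraries (vertical, log axis) against mean CPM of the 2 control hairpin libraries (horizontal, log axis) for 16861 genes, with 4 gene lists coloured; the solid line marks equal levels, the dotted lines a 2-fold difference, and means under 0.02 CPM are drawn at 0.02. CSF1R, MS4A4A, FCER1A and HLA-DRA lie below the lines, and HDC, FPR1, GATA2 and ELANE above them.

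Of the 12 largest falls 8 have a promoter window in the reference, and 6 of these hold GAGGAA, letters that PU.1 is known to prefer, on either strand. Of the 12 largest rises 10 have a window and 4 hold it. The longer form GAGGAAGT lies in 1 window of each set. GAGGAA lies in 27.2% of the windows of all genes tested. Among genes that changed at least 4-fold it lies in 36.8% of windows of falls and 36.0% of windows of rises. With 8 of the 12 largest falls covered and both sets small, no contrast between falls and rises is drawn from these window counts. The 5 windows below were picked after their letters were seen: GAPT, BTK and RASGRP3 for the longer form, MS4A4A for repeats of the short form, and CSF1R as a large fall with neither; LILRA2, FGL2 and CD180, which also fell, hold neither too. The windows run from 250 bases before to 50 bases after 1 RefSeq start of the gene, 5′ to 3′ on the gene's strand. For MS4A4A that start lies inside the gene, which spans 60185702 to 60317944 in the gene positions used here. Letters come from RefSeq on GRCh38.p14, with GAGGAA or its reverse complement in capitals. Each gene had 1 window, here and below, so other starts of a gene were not searched. The CSF1R window lies at the far 5′ end of the gene, which spans 150053291 to 150113372 on the minus strand. The lack of both forms there holds for that start alone. RASGRP3 rose and the other 4 genes fell, and MS4A4A holds the short form 3 times.
GAPT (chr5:58491185-58491484, plus strand): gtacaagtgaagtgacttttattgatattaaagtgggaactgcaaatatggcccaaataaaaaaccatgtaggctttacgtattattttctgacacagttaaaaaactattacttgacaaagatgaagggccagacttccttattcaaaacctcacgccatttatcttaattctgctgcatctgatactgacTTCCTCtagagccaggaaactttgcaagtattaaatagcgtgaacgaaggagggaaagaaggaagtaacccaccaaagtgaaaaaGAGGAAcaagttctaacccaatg
MS4A4A (chr11:60280416-60280715, plus strand): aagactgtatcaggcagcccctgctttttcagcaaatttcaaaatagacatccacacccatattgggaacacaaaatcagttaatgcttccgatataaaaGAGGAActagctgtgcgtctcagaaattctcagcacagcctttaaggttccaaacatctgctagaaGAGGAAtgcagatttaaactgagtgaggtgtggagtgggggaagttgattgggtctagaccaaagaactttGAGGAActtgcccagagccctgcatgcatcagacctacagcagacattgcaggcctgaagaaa
BTK (chrX:101390747-101391046, minus strand): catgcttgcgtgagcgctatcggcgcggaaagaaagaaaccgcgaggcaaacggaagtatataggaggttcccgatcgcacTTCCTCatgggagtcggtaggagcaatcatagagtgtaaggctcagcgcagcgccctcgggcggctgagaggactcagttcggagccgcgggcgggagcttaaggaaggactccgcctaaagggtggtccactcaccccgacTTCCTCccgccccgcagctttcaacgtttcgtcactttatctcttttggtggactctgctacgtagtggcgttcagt
CSF1R (chr5:150113316-150113615, minus strand): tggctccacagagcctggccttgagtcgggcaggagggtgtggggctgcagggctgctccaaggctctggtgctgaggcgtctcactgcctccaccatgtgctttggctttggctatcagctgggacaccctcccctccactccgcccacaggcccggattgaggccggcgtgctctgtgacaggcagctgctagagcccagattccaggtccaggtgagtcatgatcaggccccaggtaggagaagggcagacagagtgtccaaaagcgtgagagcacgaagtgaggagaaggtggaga
RASGRP3 (chr2:33436098-33436397, plus strand): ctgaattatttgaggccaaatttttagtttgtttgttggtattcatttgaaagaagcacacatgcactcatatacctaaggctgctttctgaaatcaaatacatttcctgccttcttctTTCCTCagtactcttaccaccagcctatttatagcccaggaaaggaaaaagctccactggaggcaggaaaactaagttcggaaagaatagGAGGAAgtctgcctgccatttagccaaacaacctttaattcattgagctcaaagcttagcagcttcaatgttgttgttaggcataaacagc
RASGRP3, an activator of Ras and Rap proteins, was among the 12 largest rises, at 18.9 and 17.8 CPM in knockdown libraries, against 0.348 and 0.291 CPM in controls.

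Promoter windows were at hand for 10143 of 12281 tested protein-coding genes (82.6%). GAGGAAGT, on either strand, lay in 42 of 665 windows (6.32%, 95% Wilson interval 4.71 to 8.43) of the genes that fell at least 2-fold. It lay in 269 of 10143 windows of all genes tested (2.65%, 2.36 to 2.98) and in 76 of 3114 windows of genes not called (2.44%, 1.95 to 3.04). The intervals of the fallen genes and of the genes not called did not overlap, although they cover counting error only. The short letters GAGGAA, which the longer form contains, were in 31.7% of windows of fallen genes and 27.2% of all windows. The GGAA core was in 94.0% and 95.4%, the C/EBP letters TTGCNNAA in 8.27% and 7.18%, and the GATA letters AGATAA in 6.32% and 5.02%. Windows were at hand for 80.2% of the genes that fell at least 2-fold but for 77.8% of those that rose, and for 77.2% of falls and 76.1% of rises of at least 4-fold. Below 80% the comparison was taken as void, and those shares are given as values only. The cut falls between 80.2% and 77.8%, so keeping the falls but not the rises rests on a small difference in coverage. Among genes that rose at least 2-fold, GAGGAAGT lay in 24 of 878 windows (2.73%, 1.84 to 4.04). At 4-fold it lay in 13 of 152 windows of fallen genes (8.55%, 5.07 to 14.1) and 13 of 286 windows of risen genes (4.55%, 2.68 to 7.62). The short letters GAGGAA were then in 36.8% of fallen and 36.0% of risen genes, TTGCNNAA in 13.2% and 12.2%, and AGATAA in 10.5% and 11.9%. With under 80% of genes covered at that size, no comparison with all windows is drawn from these shares.

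MHC class II, the machinery that presents peptides to helper T cells, fell almost as a whole. Of 18 listed genes 16 were tested, 14 were lower and 2 higher, with a median log2 fold change of -1.67, against 0.02 over all genes tested. CIITA, the master coactivator of class II genes, stood at 19.2 and 19 CPM in knockdown libraries, against 111 and 109 CPM in controls (-2.52 ± 0.065, adjusted p = 4e-51). CD74, the invariant chain, stood at 297 and 303 CPM in knockdown libraries, against 1469 and 1384 CPM in controls (-2.25 ± 0.039, adjusted p = 1.3e-63). HLA-DRA, the alpha chain of HLA-DR, stood at 61.7 and 61.2 CPM in knockdown libraries, against 275 and 261 CPM in controls (-2.12 ± 0.048, adjusted p = 1.4e-55). In each of these 3 genes both knockdown libraries held less than any control. HLA-DPB1 and HLA-DMA, a chain of the peptide-loading catalyst HLA-DM, fell by 1.81 and 1.70 on the log2 scale. The 2 higher members were RFX5 (0.14) and RFXANK (0.28), subunits of the factor that occupies class II promoters, and the third subunit RFXAP fell by 0.51. Leaving out either knockdown library left 1 higher member. HLA-DR beta genes are near-identical copies, so the split of reads between them is uncertain.

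**Figure D2:**
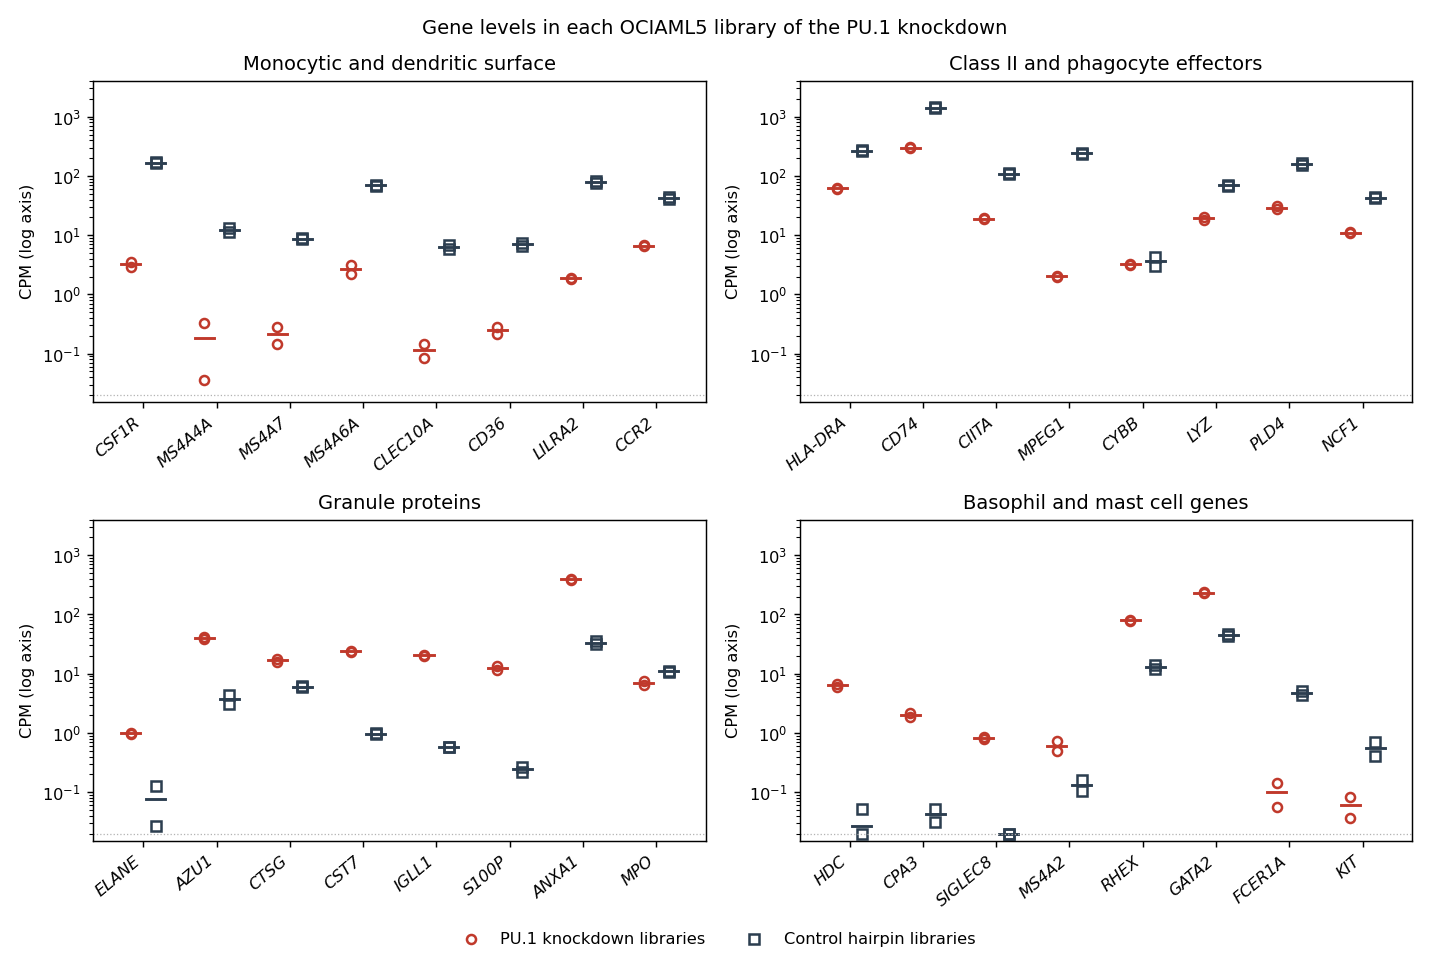
CPM in each library (vertical, log axis) of 32 genes in 4 panels, with the PU.1 knockdown libraries as red circles left of the control hairpin libraries as dark squares; short bars are means of 2 libraries and values under 0.02 CPM are drawn at 0.02. CSF1R, MPEG1 and CD74 separate the groups downward, AZU1, ANXA1, HDC and GATA2 upward, CYBB overlaps, and MPO, FCER1A and KIT go down within panels whose other genes go up.

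Among the surface receptors of monocytes and macrophages, 51 were listed, 33 tested, 21 lower (63.6%) and 10 higher (30.3%), with a median of -0.85. Beside CSF1R and CLEC10A, the falls took in the tetraspanning proteins MS4A4A and MS4A7. MS4A4A stood at 0.0362 and 0.335 CPM in knockdown libraries, against 13.1 and 11.3 CPM in controls, and MS4A7 at 0.145 and 0.279 CPM in knockdown libraries, against 8.67 and 8.79 CPM in controls. CD36, a scavenger receptor, CCR2, the receptor that draws monocytes to inflamed tissue, and SIRPA, the receptor for CD47, were chosen after their values were seen. CD36 fell by 4.79, CCR2 fell by 2.67 and SIRPA fell by 1.31. Some members were higher, by large steps. FPR1, the receptor for bacterial formyl peptides, stood at 8.15 and 8.86 CPM in knockdown libraries, against 0.0316 and 0.0265 CPM in controls, where each control held 1 count. That is a ratio of 293 with a counting interval of 81.8 to 2460. TREM1, an activating receptor of neutrophils and monocytes (chosen after its values were seen), had 5.22 and 4.57 CPM in knockdown libraries, against 0 and 0.0265 CPM in controls. CD86, a costimulatory ligand (also chosen after its values were seen), had 3.08 and 4.32 CPM in knockdown libraries, against 0.0949 and 0.0530 CPM in controls. FPR1 overlaps FPR2 on the opposite strand, which rose too.

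Fc receptors and the signalling adaptors behind them fell in 15 of 20 tested cases and rose in 4, with a median of -0.92. PTPN6, the phosphatase SHP-1 that ends receptor signals, stood at 52.5 and 51.4 CPM in knockdown libraries, against 302 and 299 CPM in controls (-2.54 ± 0.048). BTK, the kinase shown above with its promoter, stood at 48.6 and 45.9 CPM in knockdown libraries, against 143 and 144 CPM in controls (-1.6 ± 0.054). LAT2, an adaptor of immunoreceptor signalling, fell by 1.52. SYK, the kinase that Fc receptors recruit, gave 212 and 212 CPM in knockdown libraries, against 218 and 216 CPM in controls, and did not pass (adjusted p = 0.47). SPI1 itself is in this list, so 14 of the 15 falls are of other genes.

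The LILR, SIGLEC and related receptors, most of them inhibitory, fell in 10 of 19 tested cases and rose in 4, with a median of -1.11. LILRA2, an activating receptor of the family, stood at 1.85 and 1.90 CPM in knockdown libraries, against 83.3 and 77 CPM in controls (-5.41 ± 0.11). LILRB4, an inhibitory receptor of monocytic cells, stood at 8.99 and 9.81 CPM in knockdown libraries, against 110 and 106 CPM in controls (-3.51 ± 0.074). For both genes every knockdown library lay below every control. CD300A, another inhibitory receptor, fell by 4.01, SIGLEC6 fell by 1.96 and SIGLEC12 fell by 1.71. SIGLEC8, a receptor of eosinophils and mast cells (chosen after its values were seen), went the other way. It was at 0.870 and 0.781 CPM in knockdown libraries and had 0 counts in both controls, which makes it at least 19.1-fold higher when the controls are set to 3 counts over the group.

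Toll-like receptors and their partners did not move as a block, with 7 of 16 tested lower and 6 higher. CD180 and its partner LY86, which form a receptor complex related to TLR4 and MD-2, both fell. CD180 stood at 8.84 and 6.66 CPM in knockdown libraries, against 119 and 122 CPM in controls, and LY86 at 2.54 and 1.70 CPM in knockdown libraries, against 24.1 and 22.8 CPM in controls. UNC93B1, which carries nucleic-acid-sensing Toll-like receptors to endosomes, fell by 1.42, while TLR6 rose by 1.35. TLR6 overlaps TLR1, a near relative, on the same strand, and how reads were split between them is uncertain.

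Phagocyte effectors fell in 19 of 31 tested cases and rose in 9, with a median of -0.79. PLD4, an endolysosomal nuclease, stood at 27.7 and 30.9 CPM in knockdown libraries, against 167 and 151 CPM in controls (-2.43 ± 0.059). FGL2, a secreted prothrombinase-like protein, fell by 4.41. CYBB, the catalytic subunit of the NADPH oxidase, had 3.12 and 3.32 CPM in knockdown libraries, against 4.21 and 3.07 CPM in controls; the groups overlapped and the gene did not pass (adjusted p = 0.53). Among other oxidase subunits, NCF4 rose by 0.62, NCF1 fell by 1.97 and CYBA fell by 1.21, all 3 chosen after their values were seen; NCF1 has near-identical pseudogenes, so its counts are uncertain. ALOX5, which starts leukotriene synthesis and is active in granulocytes, stood at 27.7 and 27.5 CPM in knockdown libraries, against 6.01 and 5.80 CPM in controls (2.22 ± 0.11).

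Opposite changes stood side by side on chromosome 11, a feature looked for after the values were known. Taking protein-coding genes in their order along GRCh38, 19 runs of at least 3 neighbours fell at least 2-fold and 28 rose at least 2-fold, among 12401 genes placed. From 59852800 to 60098466 lay TCN1, MS4A3 and MS4A2, which all rose. TCN1, a cobalamin carrier of neutrophil granules, had 1.63 and 1.98 CPM in knockdown libraries and 0 counts in both controls. MS4A3, a marker of granulocyte and basophil precursors, had 46.4 and 49.0 CPM in knockdown libraries, against 18.6 and 17.4 CPM in controls (1.41 ± 0.078). MS4A2, the beta chain of the high-affinity IgE receptor, had 0.725 and 0.502 CPM in knockdown libraries, against 0.158 and 0.106 CPM in controls (2.19 ± 0.69, adjusted p = 0.0041). From 60172014 to 60417756 followed MS4A6A, MS4A4A, MS4A4E, MS4A7 and MS4A14, which all fell. MS4A6A, a macrophage member of the family, had 3.12 and 2.2 CPM in knockdown libraries, against 68.7 and 71.5 CPM in controls (-4.75 ± 0.10). Within this 1 gene cluster, MS4A3 and MS4A2 were thus higher and the 5 genes from MS4A6A to MS4A14 lower after knockdown. MS4A4A overlaps MS4A4E and MS4A7 overlaps MS4A14, the first pair on opposite strands and the second on the same strand, so how reads were split within each pair is uncertain. Other runs that fell held HLA-DRA to HLA-DOB on chromosome 6, LILRA2 to LILRB4 on chromosome 19 and SIRPB2, SIRPB1 and SIRPA on chromosome 20. Other runs that rose held CXCL8, CXCL6, CXCL1 and CXCL3 on chromosome 4, GBP2, GBP4 and GBP5 on chromosome 1, and OAS1, OAS3 and OAS2 on chromosome 12. Many of these neighbours are copies of one another, and shared reads were not tested.

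Azurophil granules are packed by promyelocytes, and the list made for them also holds proteins of other compartments, such as CALR. Its members rose in 17 of 23 tested cases and fell in 4, of 26 listed, with a median of 1.06. DEFA1, DEFA3 and DEFA4, the defensins on the list, had 0 counts in all 4 libraries. AZU1, the antimicrobial protein azurocidin, stood at 39.3 and 41.2 CPM in knockdown libraries, against 4.37 and 3.05 CPM in controls (3.46 ± 0.11, adjusted p = 3.4e-43). CST7, a cysteine protease inhibitor, stood at 24.2 and 23.4 CPM in knockdown libraries, against 0.949 and 1.01 CPM in controls (4.60 ± 0.16). IGLL1, a surrogate light chain that is also expressed in myeloid precursors, stood at 20.7 and 19.9 CPM in knockdown libraries, against 0.570 and 0.583 CPM in controls (5.13 ± 0.19). For all 3 the libraries of the groups were far apart, with no overlap. ANXA1, an annexin that restrains neutrophils, rose by 3.54 and CFD, the complement protease adipsin that granules also carry, by 2.98. SRGN, the proteoglycan core of granules, and CALR, a chaperone of the endoplasmic reticulum, were among the 10 largest gains in CPM of any gene. SRGN stood at 2320 and 2348 CPM in knockdown libraries, against 1114 and 1157 CPM in controls, and CALR at 3275 and 3198 CPM in knockdown libraries, against 1564 and 1531 CPM in controls. The best-known enzymes of these granules did not follow as a group. MPO, myeloperoxidase, had 7.65 and 6.50 CPM in knockdown libraries, against 11.2 and 10.7 CPM in controls, and fell by 0.63. ELANE, neutrophil elastase, rose, with 1.02 and 0.976 CPM in knockdown libraries, against 0.127 and 0.0265 CPM in controls (3.71 ± 0.69, adjusted p = 2.1e-06). PRTN3, proteinase 3, had 0.471 and 0.502 CPM in knockdown libraries, against 0.538 and 0.450 CPM in controls, and did not pass (adjusted p = 0.98). MPO, ELANE and PRTN3 were chosen after their values were seen.

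Markers of mature neutrophils were mostly absent. Of 35 listed genes 24 had too few counts to be tested, and LTF, LCN2, MMP8, OLFM4 and FCGR3B had 0 counts in all 4 libraries. Of the 11 tested, 6 rose and 2 fell. S100P, a calcium-binding protein, stood at 11.7 and 13.4 CPM in knockdown libraries, against 0.222 and 0.265 CPM in controls (5.66 ± 0.25). SLPI, a protease inhibitor, rose by 1.26 and CSF3R, the receptor for granulocyte colony-stimulating factor, by 0.58. CXCR2, the neutrophil chemokine receptor, stood at 15 and 16.4 CPM in knockdown libraries, against 39.7 and 42.8 CPM in controls, and fell by 1.39.

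Genes of basophils, mast cells and eosinophils rose in 14 of 19 tested cases and fell in 3, of 39 listed, with a median of 1.41. HDC and SIGLEC8 reached the count filter through the knockdown libraries alone, and FCER1A through the controls alone. The share that rose thus depends partly on that filter. HDC, the histidine decarboxylase that makes histamine, stood at 6.81 and 5.91 CPM in knockdown libraries, against 0 and 0.0530 CPM in controls, a ratio of 240 with a counting interval of 60.1 to 1810. CPA3, a mast cell carboxypeptidase (chosen after its values were seen), had 2.21 and 1.84 CPM in knockdown libraries, against 0.0316 and 0.0530 CPM in controls. RHEX, a regulator of erythropoietin signalling, stood at 78.9 and 80.5 CPM in knockdown libraries, against 12.2 and 14.1 CPM in controls (2.60 ± 0.075). CD69, an activation receptor, rose by 1.86. FCER1A, KIT and SIGLEC6 were the 3 members that fell, SIGLEC6 by 1.96. Among other surface genes of these cells CD69 rose, as did MS4A2 and SIGLEC8, these last at under 1 CPM in both knockdown libraries. FCER1A, the alpha chain of the high-affinity IgE receptor, which dendritic cells also carry, had 0.145 and 0.0558 CPM in knockdown libraries, against 5.19 and 4.45 CPM in controls (-5.61 ± 0.40, adjusted p = 6.5e-22). KIT, the stem cell factor receptor, had 0.0362 and 0.0836 CPM in knockdown libraries, against 0.411 and 0.715 CPM in controls (-3.11 ± 0.80, adjusted p = 0.00049). CLC, IL1RL1 and TPSB2 had at most 2 counts in any library. KIT was singled out after its values were seen.

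Single transcription factors moved by large steps while their lists split. Among granulocytic factors 5 of 16 tested were higher and 7 lower, and the direction of their median of -0.09 turned to 0.06 when only library size was scaled for. CEBPE, which drives late granule genes, stood at 114 and 112 CPM in knockdown libraries, against 13.3 and 12.9 CPM in controls (3.11 ± 0.069, adjusted p = 3.4e-56). CEBPA, the factor that commits progenitors to the myeloid line, stood at 114 and 120 CPM in knockdown libraries, against 80.8 and 71.6 CPM in controls (0.62 ± 0.054). The groups did not overlap for either factor, and the step was larger for CEBPE. GFI1, a repressor of monocytic genes in granulocytes, had 331 and 332 CPM in knockdown libraries, against 345 and 339 CPM in controls, and did not pass (adjusted p = 0.34). CEBPB, active in monocytes and in emergency granulopoiesis, did not pass either (adjusted p = 0.17). ETS2 fell by 1.51 and RARA, the retinoic acid receptor, fell by 1.08, whereas CUX1 rose by 0.84.

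Among monocytic and dendritic factors 9 of 25 tested were higher and 9 lower, SPI1 included. PRDM1, the repressor BLIMP1, stood at 3.23 and 1.65 CPM in knockdown libraries, against 14.8 and 15 CPM in controls (-2.66 ± 0.17). TFEC, a macrophage member of the MITF family, stood at 86.1 and 78.8 CPM in knockdown libraries, against 239 and 248 CPM in controls (-1.57 ± 0.047). IRF8, which works with PU.1 in monocytic and dendritic cells, stood at 84.9 and 86.9 CPM in knockdown libraries, against 202 and 193 CPM in controls (-1.20 ± 0.047). For these 3 factors every knockdown library lay below every control. EGR1, an immediate early factor of monocytes, was higher, at 30.4 and 27 CPM in knockdown libraries, against 7.37 and 7.92 CPM in controls (1.90 ± 0.11). KLF4 (adjusted p = 0.9) and NR4A1 (adjusted p = 0.88) did not pass.

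Factors of progenitors and of the erythroid and megakaryocytic lines were higher in 12 of 25 tested cases and lower in 8, or lower in 5 when only library size was scaled for. GATA2, the stem cell and mast cell factor, stood at 231 and 236 CPM in knockdown libraries, against 46.2 and 42.9 CPM in controls (2.39 ± 0.051, adjusted p = 2.1e-57). NFE2, a factor of megakaryocytes and erythroid cells, stood at 185 and 185 CPM in knockdown libraries, against 25.9 and 27.4 CPM in controls (2.79 ± 0.056, adjusted p = 4e-59). ZBTB16, the factor PLZF, stood at 421 and 421 CPM in knockdown libraries, against 139 and 140 CPM in controls (1.6 ± 0.041). For these 3 factors every knockdown library lay above every control. IKZF2, Helios, rose by 1.76 while its relative IKZF1, Ikaros, fell by 1.08. LMO2 and TAL1, partners in a progenitor complex, fell too, to 63.3 and 59.8 CPM and to 12.3 and 11.7 CPM in knockdown libraries, against 162 and 155 CPM and 25.9 and 22.1 CPM in controls. MYC had 629 and 634 CPM in knockdown libraries, against 665 and 635 CPM in controls, and did not pass (adjusted p = 0.35).

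Other progenitor genes did not rise as a group. Of 39 listed stem and progenitor genes 22 were tested, 6 were higher (27.3%) and 9 lower (40.9%), so the share that rose was no larger than the 29.5% of all genes. When only library size was scaled for, 11 of the 22 were higher, beside 6578 of all 16861 genes tested. CDK6, a cell cycle kinase of progenitors, stood at 1162 and 1129 CPM in knockdown libraries, against 592 and 575 CPM in controls, and CD38 at 155 and 158 CPM in knockdown libraries, against 68.8 and 66.7 CPM in controls. FLT3, a receptor kinase of progenitors, stood at 18.3 and 17.3 CPM in knockdown libraries, against 66.9 and 69.1 CPM in controls (-1.94 ± 0.073). CD34, the surface marker of progenitors (chosen after its values were seen), had 1.41 and 1.14 CPM in knockdown libraries, against 3.92 and 4.32 CPM in controls (-1.70 ± 0.25).

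Megakaryocyte and platelet genes rose in 9 of 16 tested cases and fell in 3, with a median of 0.66. THBS1, thrombospondin, stood at 180 and 183 CPM in knockdown libraries, against 0.854 and 0.900 CPM in controls (7.69 ± 0.097, adjusted p = 3.3e-74). SPARC, a matrix-binding protein, stood at 11 and 10.4 CPM in knockdown libraries, against 0.506 and 0.953 CPM in controls. SLC24A3, a sodium, potassium and calcium exchanger, rose by 3.38 and F13A1, the factor XIII A chain, which monocytes also make, by 2.2. PF4, platelet factor 4, had 0 counts in all 4 libraries, and ITGA2B, integrin alpha IIb, had 7.86 and 7.19 CPM in knockdown libraries, against 7.25 and 8.37 CPM in controls and did not pass (adjusted p = 0.75). Of 6 tested erythroid genes 4 fell, among them CA2, carbonic anhydrase, which fell by 0.95. Erythroid genes that rose numbered 2 of 8 without knockdown replicate 2 and 1 of 10 without control replicate 1. THBS1 overlaps FSIP1 on the opposite strand.

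Markers of lymphocytes and of non-blood cells were also looked at, since they could mark other cells in a culture. Of 29 T and NK genes 7 were tested and 6 rose, with summed levels of 123 and 118 CPM in knockdown libraries, against 93.2 and 90.3 CPM in controls. CD3D and CD3G had 0 counts in all libraries and CD3E 1 count in all, while TRAC, the T cell receptor alpha constant region, had 8.30 and 7.30 CPM in knockdown libraries, against 0.506 and 0.609 CPM in controls. Of 25 B genes 10 were tested, 3 rose and 4 fell, with sums of 78.3 and 75.3 CPM in knockdown libraries, against 156 and 158 CPM in controls, and MS4A1 had 0 counts. Of 22 epithelial, fibroblast and endothelial genes 5 were tested and 4 rose, with sums of 51.1 and 48.6 CPM in knockdown libraries, against 22.5 and 21.9 CPM in controls; CDH5 had 0 counts and EPCAM at most 1. The genes that moved there were ACTA2, PECAM1, MUC1 and COL3A1, the last outside the naming rule. The part of such cells in any result above was not tested.

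Complement and integrin genes rose in 13 of 24 tested cases and fell in 5, with a median of 0.40. CR1, the complement receptor that clears opsonised particles, stood at 61.1 and 56.1 CPM in knockdown libraries, against 0.443 and 0.530 CPM in controls (6.89 ± 0.14, adjusted p = 1.5e-58). C3AR1, the receptor for the anaphylatoxin C3a, rose by 3.57 and CD55, a complement inhibitor, by 2.34. ITGAM, the integrin chain CD11b, stood at 5.40 and 4.49 CPM in knockdown libraries, against 15.2 and 16.4 CPM in controls, and fell by 1.69. Chemokines, cytokines and their receptors split evenly, 13 higher and 13 lower of 32 tested. CXCL8, the neutrophil attractant interleukin 8, stood at 333 and 331 CPM in knockdown libraries, against 55.4 and 60.5 CPM in controls (2.51 ± 0.047). CXCR4, the receptor that holds cells in the marrow, stood at 12.8 and 14 CPM in knockdown libraries, against 0.854 and 0.715 CPM in controls (4.1 ± 0.20). CSF1, the ligand of the lost CSF1R, rose by 2.18 and OSM, oncostatin M, by 2.43, while IL18RAP, a subunit of the interleukin 18 receptor, fell by 2.45.

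Other large rises took in transporters and enzymes. SLC6A13, a transporter of GABA, stood at 6.38 and 6.41 CPM in knockdown libraries, against 0.0633 and 0.0265 CPM in controls, a ratio of 142 with a counting interval of 50.3 to 720. DNASE2, the lysosomal DNase, stood at 16.6 and 17.4 CPM in knockdown libraries, against 0.253 and 0.185 CPM in controls (6.27 ± 0.24). SLC14A1, a urea transporter, rose by 5.84, and the unnamed transcripts AL157895.2 and AL136090.2 by 5.79 and 5.70. AKR1C3, an aldo-keto reductase of prostaglandin and steroid metabolism (chosen after its values were seen), is on the stem and progenitor list. It had 2.39 and 2.01 CPM in knockdown libraries and 0 counts in both controls. That is at least 50.9-fold higher against 3 counts over the group. By biotype, 18.4% of 2272 long non-coding RNAs rose at least 2-fold, against 9.09% of 12401 protein-coding genes. Low levels went with rises: of 3500 genes averaging under 1 CPM 773 rose and 252 fell at least 2-fold, while of 2216 genes averaging at least 100 CPM 56 rose and 136 fell by that much.

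Genes of cell division fell without exception in the 2 lists made for them. All 35 tested DNA replication genes were lower (median -0.93), as were all 30 tested mitosis genes (median -0.97). CDT1, which licenses replication origins, stood at 50.8 and 47.7 CPM in knockdown libraries, against 120 and 114 CPM in controls. PLK1, a mitotic kinase, stood at 67.9 and 67.2 CPM in knockdown libraries, against 193 and 176 CPM in controls. Most falls were of about 2-fold, with 14 of 35 and 14 of 30 past that size. CDKN1A, the inhibitor p21, was the reverse, at 1005 and 1053 CPM in knockdown libraries, against 341 and 330 CPM in controls (1.62 ± 0.039). CCND1, cyclin D1, fell by 1.86 and CDKN2D, the inhibitor p19, rose by 1.23.

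**Figure D3:**
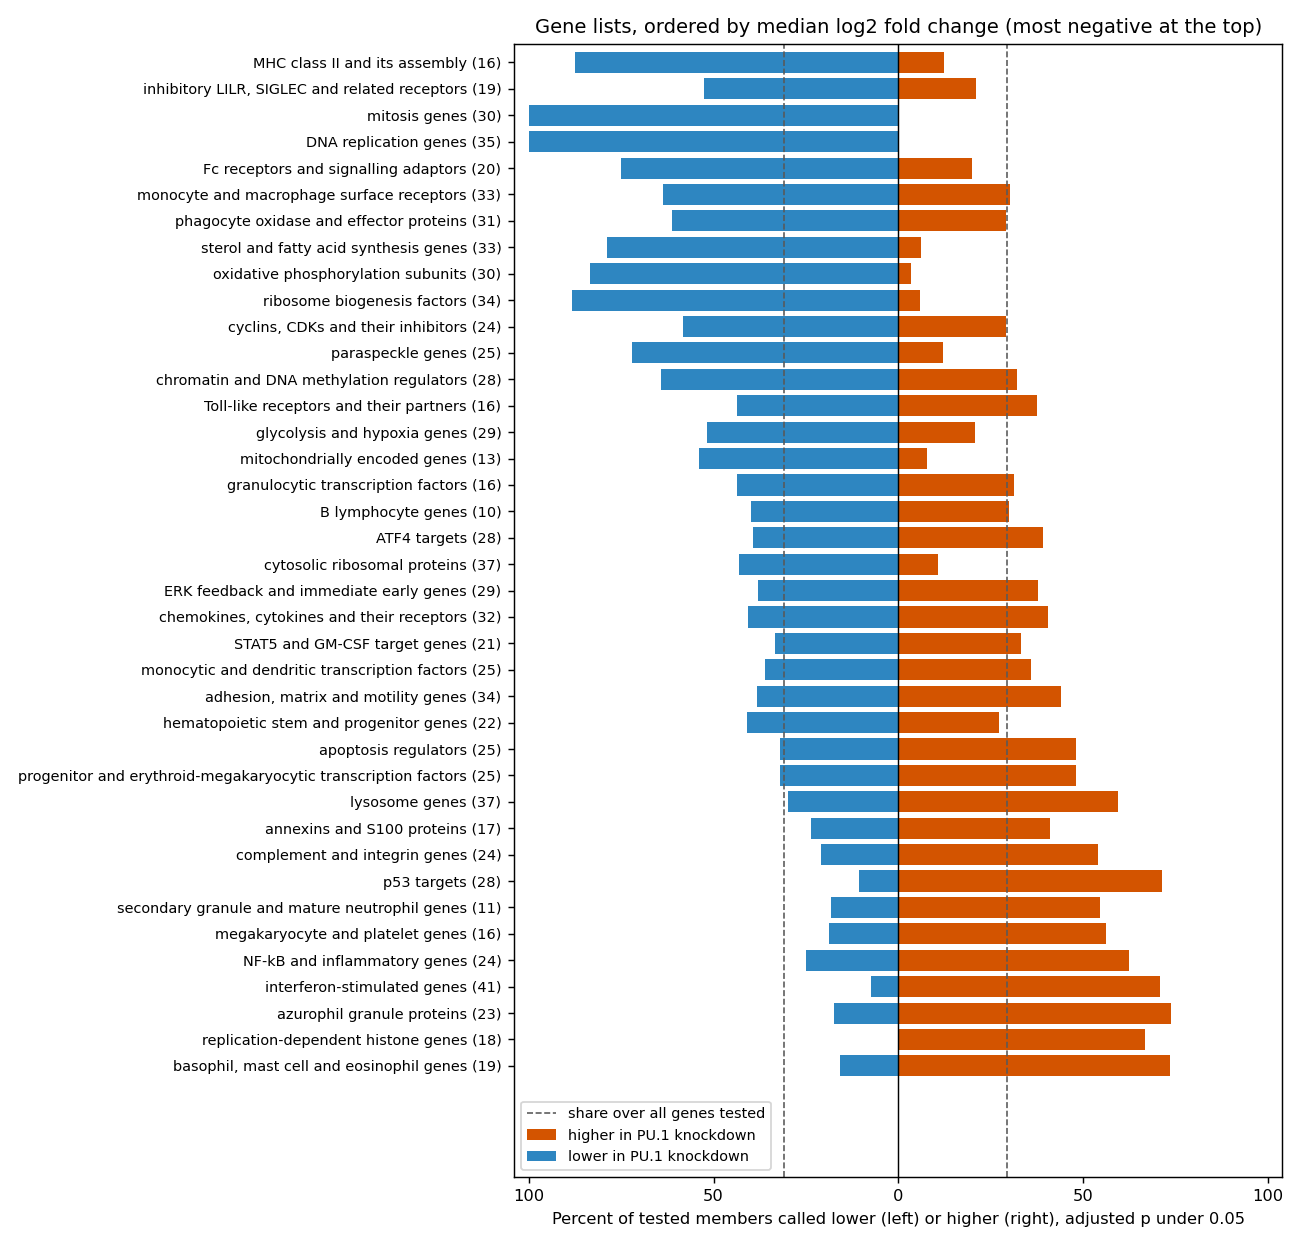
Share of tested members called lower (blue, left) or higher (orange, right) after PU.1 knockdown, in percent, for the 39 gene lists with at least 10 tested members (number in brackets), ordered from the most negative median log2 fold change at the top; dashed lines mark the shares of all genes tested, 30.9% lower and 29.5% higher. Replication and mitosis lists reach 100% lower and the class II list 87.5%, while the azurophil and basophil lists reach 73.9% and 73.7% higher.

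Biosynthesis fell too. Ribosome biogenesis factors were lower in 30 of 34 cases (median -0.44), sterol and fatty acid synthesis genes lower in 26 of 33 (median -0.73), and nuclear subunits of oxidative phosphorylation lower in 25 of 30 (median -0.51). SCD, the fatty acid desaturase, stood at 197 and 195 CPM in knockdown libraries, against 577 and 585 CPM in controls (-1.57). SREBF1, the regulator of fatty acid synthesis, fell by 1.52, FADS2, another desaturase, fell by 1.93 and ABCG1, a cholesterol exporter, fell by 2.69; FADS2 overlaps FEN1 and FADS1. NOLC1, a nucleolar chaperone, fell by 1.23, and CYC1, cytochrome c1, fell by 0.80. Lysosome genes went the other way, higher in 22 of 37 and lower in 11 (median 0.24). SCARB2, a lysosomal membrane protein, stood at 95.9 and 97.1 CPM in knockdown libraries, against 42.1 and 44.8 CPM in controls (1.15), although CTSZ, cathepsin Z, fell by 1.53. Among glycolysis and hypoxia genes 15 of 29 fell and 6 rose, led by NDRG1, a hypoxia-induced gene, at 655 and 651 CPM in knockdown libraries, against 125 and 122 CPM in controls. Among 28 ATF4 targets 11 rose and 11 fell: SLC7A11, the cystine carrier, rose by 1.77 and PSAT1, of serine synthesis, fell by 1.46.

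By level, the largest loss in CPM was that of ACTB, beta-actin, at 4936 and 5004 CPM in knockdown libraries, against 9422 and 9103 CPM in controls (-0.90 ± 0.037). ACTG1, gamma-actin, gained, at 2639 and 2723 CPM in knockdown libraries, against 1267 and 1215 CPM in controls (1.11 ± 0.037). So the 2 cytoplasmic actins, near-identical proteins, moved in opposite directions, and shared reads between them were not tested. HSPA8, a heat shock chaperone, fell by 0.77, and GLUL, glutamine synthetase, rose by 1.71, to 1986 and 1966 CPM in knockdown libraries, against 595 and 609 CPM in controls. MALAT1, a nuclear non-coding RNA, stood at 2963 and 2828 CPM in knockdown libraries, against 1201 and 1193 CPM in controls (1.27 ± 0.037).

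Interferon-stimulated genes rose in 29 of 41 tested cases and fell in 3 (median 0.79). IFI44L stood at 16.7 and 14.7 CPM in knockdown libraries, against 1.11 and 1.35 CPM in controls (3.65), and GBP2, a guanylate-binding protein, at 81.3 and 75.4 CPM in knockdown libraries, against 13.8 and 15.9 CPM in controls (2.39). Targets of p53 rose in 20 of 28 cases and fell in 3, or in 1 without knockdown replicate 1 (median 0.45). They were led by TP53INP1, an autophagy regulator, at 211 and 201 CPM in knockdown libraries, against 48.5 and 43.5 CPM in controls. Inflammatory targets of NF-kB rose in 15 of 24 and fell in 6 (median 0.73), with MAP3K8, a kinase upstream of ERK, up by 2.48 and NFKBIE, an inhibitor of the pathway, down by 1.76. Feedback and immediate early genes of the ERK pathway split, with 11 of 29 higher and 11 lower. DUSP6, the ERK phosphatase, stood at 19 and 19.4 CPM in knockdown libraries, against 89.1 and 86.2 CPM in controls (-2.19). Replication-dependent histone genes, whose mRNAs end in a stem loop in place of a poly(A) tail, rose in 12 of 18 tested cases while replication genes fell. Their sum was 87.4 and 88.0 CPM in knockdown libraries, against 29.1 and 30.8 CPM in controls. Further RNAs that lack such a tail summed to 6.49 and 6.33 CPM in knockdown libraries, against 9.52 and 6.25 CPM in controls, and the mitochondrial share was 10.6% and 9.84% in knockdown libraries, against 9.95% and 10% in controls. The part of RNA selection in the histone rise was not tested.

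The knockdown of PSPC1 in the same line, against its own controls, allowed each change to be set beside that after another hairpin. SPI1 stood at 207 and 223 CPM in the PSPC1 knockdown libraries of a joint fit of 8 libraries, against 209 and 187 CPM in their controls. PSPC1 knockdown raised 27.3% and lowered 29.7% of the 17159 genes tested. When the effects were subtracted, the PU.1 effect was the higher for 3895 (22.7%) and the lower for 3924 (22.9%). The 2 sets of controls were not alike: HLA-DRA stood at 272 and 259 CPM in the PU.1 controls and at 582 and 640 CPM in the PSPC1 controls, and GATA2 at 45.8 and 42.5 CPM in the PU.1 controls and at 17.4 and 16.8 CPM in the PSPC1 controls. Experiment and targeted gene cannot be told apart in such levels, so each effect was taken against its own controls.

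Class II, granule and basophil genes set the knockdowns apart. For class II the median log2 fold change was -1.70 after PU.1 knockdown and -0.23 after PSPC1 knockdown, and the PU.1 effect was the lower for 12 genes and the higher for 1. For azurophil granule genes the medians were 1.06 and -0.47, with the PU.1 effect higher for 16 of 23 genes and lower for 3. For basophil, mast cell and eosinophil genes they were 1.41 and -0.58, with the PU.1 effect higher for 11 of 19 and lower for 1. Granulocytic transcription factors differed as well, with the PU.1 effect higher for 14 genes and lower for 1; of 17 tested, 14 fell after PSPC1 knockdown. CSF1R fell by 5.68 after PU.1 knockdown, against a change of -0.25 after PSPC1 knockdown (difference -5.43 ± 0.11, adjusted p = 1.3e-42). CEBPE and GATA2 differed in the other direction (3.48 ± 0.20, adjusted p = 1.2e-21, and 2.32 ± 0.11, adjusted p = 5.4e-25). The LILR, SIGLEC and related receptors had joint-fit medians of -0.72 after PU.1 knockdown and -1.43 after PSPC1 knockdown, where 13 of 19 fell. Their PU.1 effect was the higher for 7 and the lower for 6. Monocyte and macrophage surface receptors had medians of -0.81 and -0.26, with the PU.1 effect lower for 13 of 38 and higher for 7.

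Division, interferon and p53 genes had medians of the same sign in both. DNA replication genes had medians of -0.93 after PU.1 knockdown and -1.71 after PSPC1 knockdown, and all 35 fell in each. Interferon-stimulated genes had medians of 0.79 and 1.10, with 29 of 41 higher in each, and p53 targets 0.45 and 1.05. Replication-dependent histone genes had medians of 1.28 and 3.03, and sterol and fatty acid synthesis genes -0.73 and -1.02. In each of these lists some members still differed in size. The fall of 29 replication genes was smaller after PU.1 knockdown than after PSPC1 knockdown. For 22 p53 targets and 9 histone genes the PU.1 effect was the lower, whether or not the gene rose after PU.1 knockdown. Oxidative phosphorylation subunits did not follow this pattern, with medians of -0.51 and -0.06 and the PU.1 effect lower for 24 of 30. PSPC1 itself fell after PU.1 knockdown, to 59.1 and 57.6 CPM, against 105 and 112 CPM in the PU.1 controls (-0.89).

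**Figure D4:**
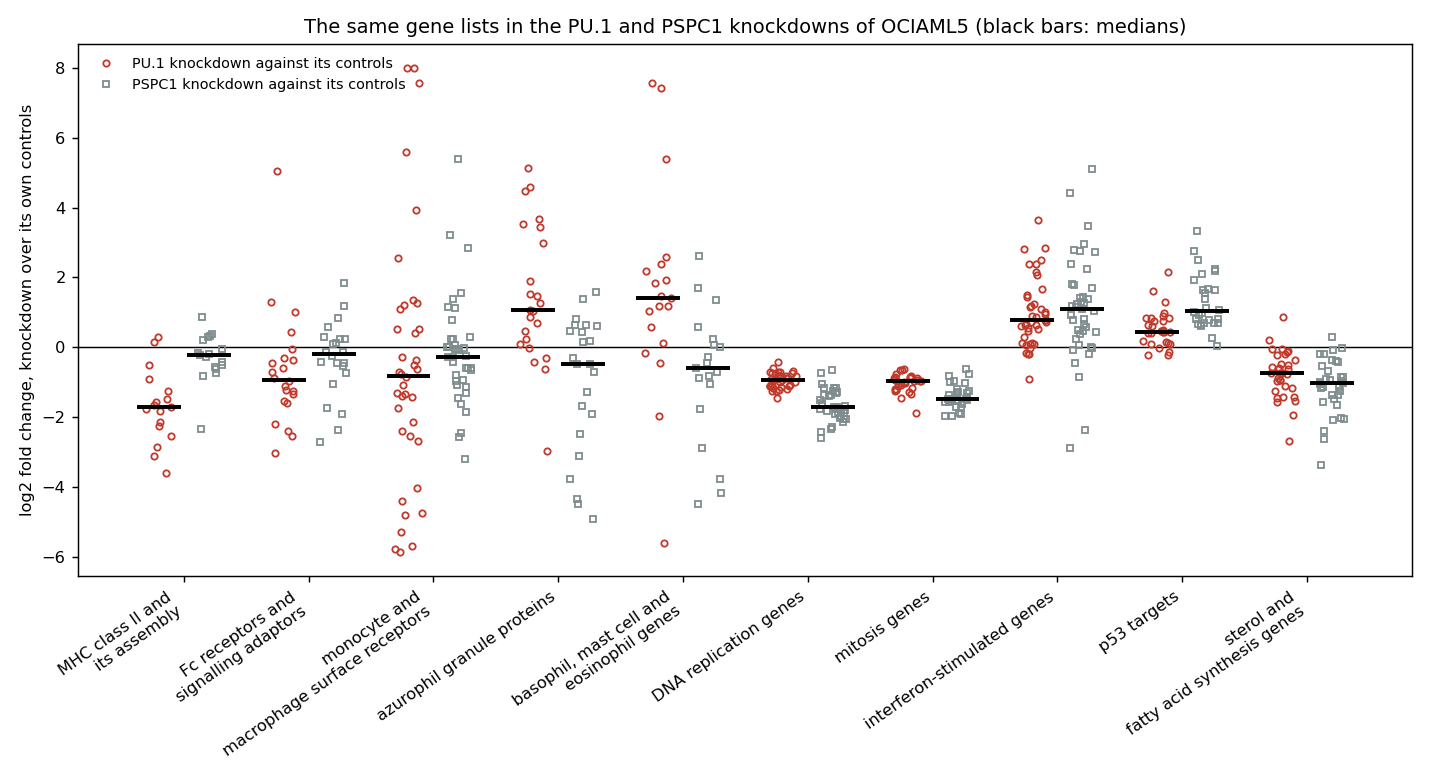
log2 fold change of each list member (vertical), with PU.1 knockdown over its controls as red circles left of PSPC1 knockdown over its controls as grey squares, for 10 gene lists from the joint fit of 8 libraries; black bars are medians. Class II medians are -1.70 and -0.23 and azurophil granule medians 1.06 and -0.47, while replication, mitosis, interferon, p53 and sterol lists have medians on the same side of 0 in both.

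Some single genes changed in opposite directions. GAPT, P2RY14, PTPRO and FCER1A fell after PU.1 knockdown and rose after PSPC1 knockdown. GAPT stood at 0.179 and 0.166 CPM in PU.1 knockdown libraries, against 12.7 and 11.9 CPM in their controls, and at 30.7 and 36.1 CPM in PSPC1 knockdown libraries, against 8.34 and 6 CPM in theirs (difference -8.32 ± 0.30, adjusted p = 5.1e-30). P2RY14, a receptor for UDP-sugars, stood at 0.0359 and 0.0276 CPM in PU.1 knockdown libraries, against 0.846 and 0.866 CPM in their controls, and at 13.1 and 11.6 CPM in PSPC1 knockdown libraries, against 4.57 and 3.76 CPM in theirs. The reverse held for IGLL1, at 20.5 and 19.8 CPM in PU.1 knockdown libraries, against 0.564 and 0.577 CPM in their controls, and at 0.0430 and 0 CPM in PSPC1 knockdown libraries, against 0.846 and 0.923 CPM in theirs (difference 10.04 ± 0.76, adjusted p = 1e-16). The size of that difference rests on very few counts in the PSPC1 knockdown libraries. CTSG, the granule protease cathepsin G (chosen after its values were seen), rose by 1.47 after PU.1 knockdown and fell by 4.49 after PSPC1 knockdown (difference 5.96 ± 0.53, adjusted p = 4.1e-14). TRDV2, a T cell receptor delta segment, and the pseudogene RHOXF1P2 also rose after PU.1 knockdown and fell after PSPC1 knockdown. FGFBP2, a secreted binding protein of cytotoxic lymphocytes, and ADGRG3, an adhesion receptor of granulocytes, differed by 7.62 and 7.75, on few counts in the PSPC1 libraries. Without PSPC1 control replicate 2 the difference for ADGRG3 did not pass (adjusted p = 0.066), nor did that for RHOXF1P2 without PSPC1 control replicate 1 (adjusted p = 1). HDC passed the difference test (adjusted p = 0.0089) but not without PSPC1 control replicate 2, which held its sole count on the PSPC1 side (adjusted p = 1).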

How the data were processed

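RNA was sequenced from poly(A) libraries of OCIAML5 cells made with a stranded kit, per the labels' protocols. The values are raw counts per gene as deposited by the authors, with 60648 genes and no further normalization. Per the submitters' processing notes, Trim Galore 0.6.7, STAR 2.7.10a, HTSeq 2.0.2, DESeq2 1.36.0 and GRCh38 were used, without stated roles; the annotation release is not stated in the sources at hand.

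The 4 libraries of the PU.1 table, placed by their labels in 2 groups of 2, were fitted with edgeR 4.0.16 in R 4.3.3: filterByExpr, TMM scaling and the robust quasi-likelihood F test, with 2 residual degrees of freedom. Benjamini-Hochberg adjustment ran over all genes tested, with a threshold of 0.05, and adjusted p-values for PU.1 knockdown come from this test. CPM were computed with TMM-scaled library sizes. The difference from the PSPC1 effect was an interaction in 1 model of 8 OCIAML5 libraries from 2 tables counted separately, with 4 residual degrees of freedom. Adjusted p-values of differences come from that model, or from its refit without a library where the text says so. Ratios against groups of 1 to 3 counts carry exact counting intervals, and a group with 0 counts was set to 3 counts over the group, 0.0473 CPM for knockdown and 0.0432 CPM for controls. Intervals and such limits cover counting error only. The procedure was tested on simulated data.

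The 43 gene lists hold 1203 symbols, of which 1202 are in the table. The members and lists were chosen with earlier results of these data known, so their counts describe and support nothing independently. A member could be tested through its counts in either group alone, so the shares that rose or fell partly follow the filter. Genes were named by rule: SPI1; the 12 largest changes each way at 5 CPM or more with no overlap of groups; the 10 largest differences in CPM each way; up to 5 passing members per list at 5 CPM or more; all members of the 3 transcription factor lists and members that did not pass; genes switched between 10 and 0.2 CPM; and the 6 largest differences each way from PSPC1 knockdown. Any other passing gene was picked with its values in view, genes given as neighbours or overlaps included. A few listed genes are not reported here by name. Positions come from GENCODE on GRCh38 (95.7% of tested genes matched) and promoters from RefSeq.

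Same-numbered libraries of the 2 groups correlated in their deviations at -0.0248 over 2 pairs, so the numbers were not taken to pair samples. Between libraries of a group the variance was 3.52 (knockdown) and 4.04 (controls) times that of counting. Alternatives were DESeq2 1.42.0, RLE factors, library size alone, other low-count filters, the replicate number as a block, leaving out each library, the 8-library model, an adjusted p of 0.01 and a 2-fold minimum.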

Additional observations from a re-analysis of the deposited data

How the results depend on the processing

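The count of genes called after PU.1 knockdown was 10197, and it was 8731 with DESeq2, 10181 with RLE factors, 10578 with library size alone, 9926 without a low-count filter, 9526 with a 1 CPM filter, 9635 in the 8-library model, 8766 at an adjusted p of 0.01 and 8792 to 9424 without each library in turn. A 2-fold minimum left 2936. The PU.1 effect differed from the PSPC1 effect for 7819 genes, for 6335 to 7822 under the other settings, 6935 to 7625 without each library included, and for 2596 with a 2-fold minimum. With the replicate number as a block, 9929 genes were called for PU.1 knockdown and 7683 for the difference; the samples share only a number. Scaling by library size alone raised the stem and progenitor genes called higher to 11, beside 6578 of all 16861 genes tested. The same scaling turned MT-RNR2 and MT-ND4 to 0.0066 and 0.030 on the log2 scale, neither passing. It also turned the sign of the medians of 8 lists (chemokines, granulocytic factors, B lymphocytes, ATF4 targets, ERK genes, STAT5 targets, cytosolic ribosomal proteins and mitochondrially encoded genes); the cause lies in the scaling itself. Class II members called higher ranged from 1 to 2 without each library. Named genes kept direction and call in 2305 refits, and besides the 2 turned values MT-ND4 lost its call in 3. With a 4-fold minimum, promoter shares moved to 8.55% in falls and 4.55% in rises for GAGGAAGT, 36.8% and 36.0% for GAGGAA, 13.2% and 12.2% for TTGCNNAA and 10.5% and 11.9% for AGATAA, with under 80% of genes covered. With 2 libraries a group, genes under about 1 CPM are limited by counting.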
